A study of Homo sapiens with 12 samples.

Results

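The 10 genes described here are the core ferroptosis and iron handling genes GPX4, ACSL4, LPCAT3, SLC7A11, TFRC, FTH1, FTL, HMOX1, AIFM2 and SAT1, chosen by name from 58302 gene identifiers. Each symbol matched 1 identifier, and all 10 passed the filter on low counts that left 17849 genes to be tested. The libraries are described as coming from NCI-H520 (H520), a human lung squamous cell carcinoma (LUSC) line grown in RPMI1640 with fetal bovine serum. RNA was sequenced in 12 libraries, in 4 groups of 3. The L1-FGGY DMSO cells carried a lentiviral L1-FGGY insertion, a chimeric transcript that joins LINE-1 sequence to the carbohydrate kinase gene FGGY, and received vehicle alone. The L1-FGGY ML355 cells carried the same insertion and received 10 μM ML355, an inhibitor of 12-lipoxygenase (12-LOX, gene ALOX12). The L1-FGGY NVR libraries are labelled as the insertion line with 450 μM of the reverse transcriptase inhibitor NVR. The CTRL DMSO cells were the empty vector line in vehicle. Inhibitor or vehicle (0.2% DMSO) was given with fresh medium 5 h after seeding, and the length of treatment is not given in the sources used here. Nothing states that the 3 samples of a group were separate cultures, so p-values measure the spread between these samples only. Whether the transduced lines were clones or pools is not given in the sources used here.

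Ferroptosis is a form of cell death in which iron drives the peroxidation of phospholipids that hold polyunsaturated fatty acids. ACSL4 and LPCAT3 place such fatty acids into membranes, GPX4 reduces the lipid peroxides with glutathione, and SLC7A11 imports the cystine from which glutathione is made. AIFM2 (also called FSP1) reduces coenzyme Q to a radical trap at the membrane. TFRC brings in transferrin-bound iron, FTH1 and FTL form the ferritin shell that stores it, HMOX1 releases iron from haem, and SAT1 acetylates polyamines and is known to sensitise cells to ferroptosis. Ferritin and TFRC are regulated at the RNA level by iron regulatory proteins, which in low iron bind a stem-loop, block translation of ferritin from its 5′ UTR and stabilise the TFRC message through its 3′ UTR.

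The label of the NVR libraries was checked by FGGY, the overexpressed gene. FGGY lay at 286.5 ± 22 CPM (mean ± SD, n = 3; CPM is the count scaled to library size with TMM factors) in L1-FGGY DMSO and at 317 ± 47.8 CPM in L1-FGGY ML355. It lay at 4.24 ± 0.522 CPM in the libraries labelled NVR and at 3.40 ± 0.418 CPM in CTRL DMSO. The count table heads the NVR columns without the words L1-FGGY and the CTRL columns with DMSO alone. Pearson's correlations of log2 CPM were at least 0.979 within a group and at least 0.932 between groups on the same side of this FGGY split, against 0.706 to 0.774 across it. The libraries labelled NVR are therefore compared with both DMSO groups. Line and treatment cannot be told apart in either comparison of them. Between the DMSO groups, which also lie across the split, the L1-FGGY insertion cannot be told apart from any other difference between the lines.

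Total counts ran from 16242082 to 27004768, and the lowest count of a member was 37 (LPCAT3 in NVR replicate 3). Of 7 squamous markers, KRT5, KRT6A, DSG3 and PKP1 had at most 3 counts in each library, and SOX2 was at 0 in both FGGY-high groups and at 7.02 to 17.1 CPM in the other 2. TP63 was at 0.63 to 0.841 CPM in L1-FGGY DMSO and 0.0525 to 0.394 in ML355. In NVR it was at 1.70 to 3.92 CPM and in CTRL DMSO at 2.10 to 4.14. KRT14 went the other way, with 0 counts in NVR and CTRL DMSO. It had 4 to 10 counts per library in L1-FGGY DMSO and 29 to 63 in ML355. The 4 fibroblast markers summed to 335 to 349 CPM in L1-FGGY DMSO, 110 to 121 in ML355, 19.2 to 22 in NVR and 19.5 to 25 in CTRL DMSO. COL1A2 had 3 counts or fewer in each library of all 4 groups. DCN and LUM had 3 counts or fewer in each library of NVR and CTRL DMSO only. The 3 endothelial markers summed to 8.88 to 9.41 CPM in L1-FGGY DMSO and 0.257 to 0.689 in the other groups, and CDH5 and PECAM1 fell with ML355 (log2 fold change -3.79 and -4.87) and were higher in L1-FGGY DMSO than in CTRL DMSO (3.99 and 4.4). Summed leukocyte markers were at most 3.70 CPM and erythroid markers at most 1.15 CPM. The mitochondrial share of counts was 5.79% to 6.52% in L1-FGGY DMSO, 1.46% to 1.64% in ML355, 6.19% to 6.74% in NVR and 4.21% to 4.51% in CTRL DMSO, so it was lowest in ML355. The part of these markers and of this share in the members' results was not tested. Whether the groups on both sides of the FGGY split came from the same parental line was not tested either. Coding genes with a transcript of at most 1500 bases took 15.5% to 17.3% of counts in L1-FGGY DMSO, 17.5% to 20.4% in ML355, 21.8% to 29.0% in NVR and 17.3% to 21.7% in CTRL DMSO. Among the members GPX4 (851 bases), FTL (871), SAT1 (1049) and FTH1 (1203) have short transcripts, and ACSL4 (4891), TFRC (5012) and SLC7A11 (9645) have long ones. In bulk RNA a change in the share of cells and a change in RNA per cell cannot be told apart.

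Iron responsive elements are shown because they are the RNA feature that ferritin and TFRC share. The core searched was a bulged C, 5 bases, the loop CAGTGN and 5 bases that pair with the first 5. It was found in 3 of 10 members and in 262 of 20046 canonical coding transcripts (1.31%). Capitals mark the bulged C and the loop in these 30-base windows of hg38 (GENCODE 44), which lie in the 5′ UTR of FTH1 (chr11:61967573-61967602, minus strand) and of FTL (chr19:48965335-48965364, plus strand), and in the 3′ UTR of TFRC (minus strand; chr3:196050978-196051007, chr3:196050574-196050603, chr3:196050509-196050538 and chr3:196050462-196050491).
FTH1: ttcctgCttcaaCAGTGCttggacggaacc
FTL: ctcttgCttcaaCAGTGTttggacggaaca
TFRC-a: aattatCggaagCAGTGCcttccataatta
TFRC-b: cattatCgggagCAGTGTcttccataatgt
TFRC-c: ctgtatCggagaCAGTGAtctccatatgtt
TFRC-d: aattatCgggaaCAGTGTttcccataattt
A match is a description of letters and says nothing about binding in these cells.

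Counts of members that passed the test (the quasi-likelihood test of edgeR, with p-values adjusted by Benjamini and Hochberg's method over all genes tested and a threshold of 0.01) are set beside the share of all genes that passed. With ML355 in the L1-FGGY line, 5 members rose (SAT1, FTH1, FTL, GPX4 and AIFM2; 21.3% of all genes rose) and 2 fell (SLC7A11 and TFRC; 23.5% fell). In NVR against CTRL DMSO, 3 rose (GPX4, SAT1 and FTL; background 14.5%) and 4 fell (TFRC, LPCAT3, SLC7A11 and HMOX1; background 15.3%). In NVR against L1-FGGY DMSO, 3 rose (FTL, SAT1 and GPX4; background 38.2%) and 4 fell (TFRC, ACSL4, SLC7A11 and LPCAT3; background 35.4%). Between the DMSO groups, 2 were higher in L1-FGGY (ACSL4 and TFRC; background 32.5%) and 3 were lower (FTL, SAT1 and HMOX1; background 36.2%). The members' median log2 fold change was 0.51 with ML355 and 0.15 in NVR against CTRL DMSO, where the median over all genes was 0. Of all genes that passed in NVR against CTRL DMSO, 48.8% were higher, and 36.3% with library size alone as the scaling.

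**Figure D1:**
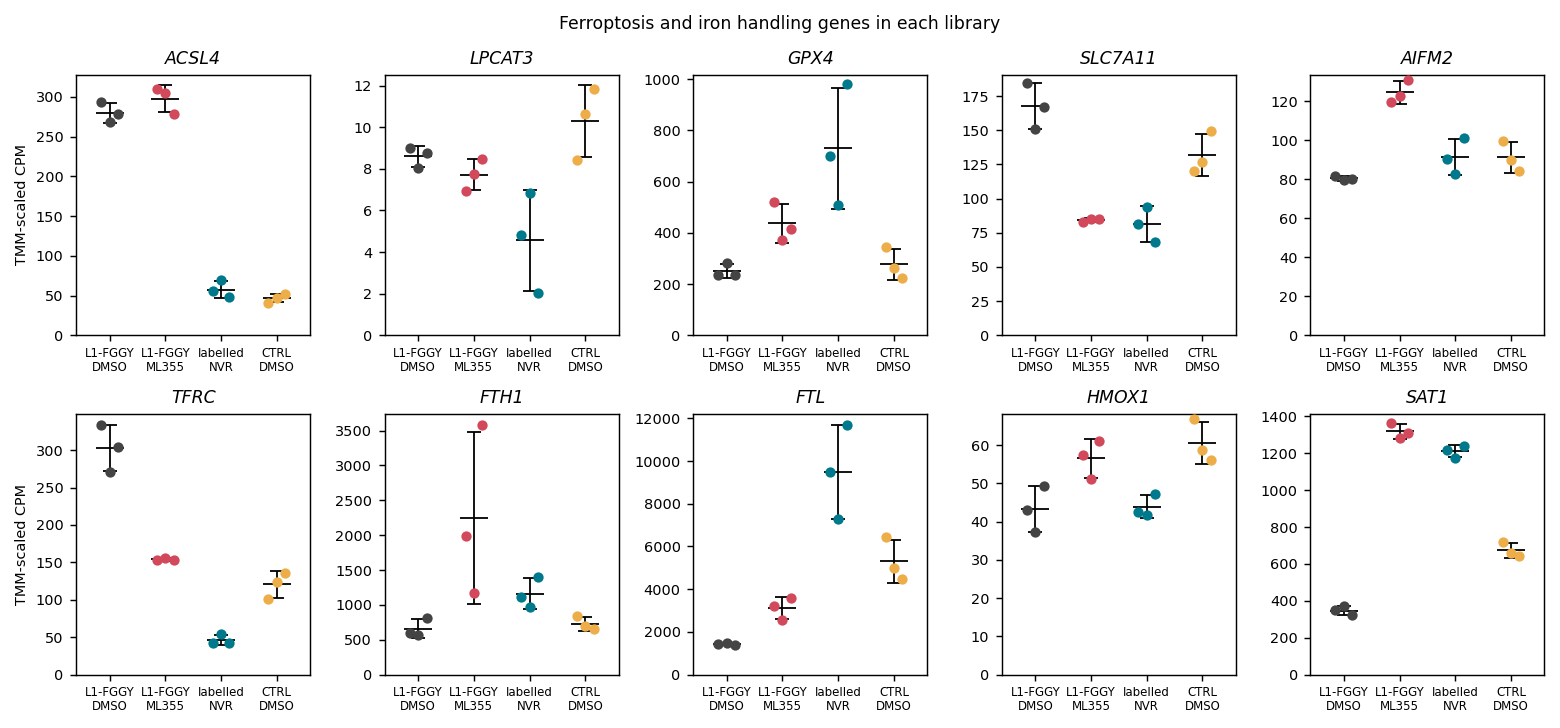
TMM-scaled CPM (y axis, linear from 0) of each member in each of the 12 libraries (points), with the mean and SD of the 3 libraries per group (bars). TFRC falls from 271 to 334 CPM in L1-FGGY DMSO to 42.0 to 54.3 in the libraries labelled NVR, while FTL rises from 1376 to 1478 CPM to 7265 to 11695.

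The lipid substrate genes differed in pattern: ACSL4 followed the FGGY split and LPCAT3 was lowest in the libraries labelled NVR. ACSL4 (chrX:109624244-109733403, minus strand), which activates arachidonic acid for esterification, was at 294, 268 and 278 CPM in L1-FGGY DMSO and at 310, 305 and 279 in ML355. It was at 55.1, 69.4 and 47.9 CPM in NVR and at 41.1, 47.1 and 52.2 in CTRL DMSO. The FGGY-high and FGGY-low libraries did not overlap, and the groups within each side did. The log2 fold change was 2.58 ± 0.14 (SE; adjusted p = 6.8e-11 by edgeR) between the DMSO groups, 0.09 ± 0.13 with ML355 (adjusted p = 0.581) and 0.30 ± 0.13 in NVR against CTRL DMSO (adjusted p = 0.0785). Against L1-FGGY DMSO, the vehicle group of its label, NVR was at -2.28 ± 0.14 (adjusted p = 2.08e-10). LPCAT3 (chr12:6976185-7018477, minus strand), the acyltransferase that follows ACSL4, was far lower, at 9.0, 8.04 and 8.76 CPM in L1-FGGY DMSO and 6.94, 7.77 and 8.45 in ML355. It was at 4.80, 6.84 and 2.03 CPM in NVR and at 8.41, 10.6 and 11.8 in CTRL DMSO, with every NVR library below both DMSO groups, which overlapped each other. The fall against CTRL DMSO, -1.15 ± 0.28 (adjusted p = 0.0036), did not pass without NVR replicate 1, CTRL replicate 2 or CTRL replicate 3 (adjusted p = 0.0138, 0.0136 and 0.0176), nor with only the groups compared in the fit (0.0291). The fall against L1-FGGY DMSO, -0.89 ± 0.28 (adjusted p = 0.00897), did not pass without any 1 of the 3 DMSO libraries, NVR replicate 1 or NVR replicate 3 (adjusted p from 0.0156 to 0.0260), nor in 4 other alternatives (0.0118 to 0.0378). Without NVR replicate 3, the lowest library, it was -0.55.

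Within the cystine and glutathione arm, GPX4 rose and SLC7A11 fell with ML355, and GPX4 was higher and SLC7A11 lower in NVR than in CTRL DMSO. GPX4 (chr19:1103982-1106791, plus strand), the selenoprotein that reduces lipid peroxides, was at 234, 282 and 235 CPM in L1-FGGY DMSO and at 519, 374 and 416 in ML355. It was at 701, 507 and 980 CPM in NVR and at 344, 264 and 225 in CTRL DMSO. ML355 lay above L1-FGGY DMSO, and NVR above both DMSO groups, without overlap. The log2 fold change was 0.80 ± 0.21 with ML355 (adjusted p = 0.00367), 1.39 ± 0.21 in NVR against CTRL DMSO (adjusted p = 8.17e-05) and 1.54 ± 0.21 in NVR against L1-FGGY DMSO (adjusted p = 4.64e-06), where it was -0.40 with length and GC trends removed, an alternative described further on. The ML355 rise no longer passed without DMSO replicate 1, DMSO replicate 3 or ML355 replicate 1 (adjusted p = 0.0208, 0.0196 and 0.0249). Within the NVR and the CTRL groups, GPX4, FTL and FTH1 each followed the order of the short-transcript share, which was highest in NVR replicate 3 (29.0%) and CTRL replicate 1 (21.7%) and lowest in NVR replicate 2 (21.8%) and CTRL replicate 3 (17.3%).

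SLC7A11 (chr4:138164097-138242349, minus strand), the light chain of the cystine and glutamate exchanger, was at 185, 151 and 167 CPM in L1-FGGY DMSO and at 82.6, 85.2 and 85.3 in ML355. It was at 81.5, 94.2 and 68.2 CPM in NVR and at 120, 127 and 149 in CTRL DMSO. All 6 ML355 and NVR libraries lay below both DMSO groups. The log2 fold change was -0.99 ± 0.13 with ML355 (adjusted p = 7.73e-06) and -0.70 ± 0.13 in NVR against CTRL DMSO (adjusted p = 0.000427). The DMSO groups differed by 0.34 ± 0.13, which did not pass (adjusted p = 0.0216). SLC3A2, the heavy chain that partners SLC7A11, went the other way with ML355, from 367 to 419 CPM up to 1372 to 1868 CPM (log2 fold change 2.04 ± 0.14, adjusted p = 9.78e-09). The 2 subunits of 1 transporter thus changed in opposite directions in those libraries.

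AIFM2 (chr10:70098223-70132934, minus strand) rose with ML355. It was at 81.8, 79.6 and 79.8 CPM in L1-FGGY DMSO and at 120, 123 and 131 in ML355, a log2 fold change of 0.63 ± 0.11 (adjusted p = 9.47e-05). In NVR it was at 90.5, 82.6 and 101 CPM and in CTRL DMSO at 99.8, 89.6 and 84.3, and these 2 groups overlapped (log2 fold change 0.00 ± 0.10). Against L1-FGGY DMSO the NVR value was 0.18 ± 0.11 (adjusted p = 0.118). The antioxidant response element core TGACNNNGC, bound by NRF2, was searched on both strands of RefSeq windows from 250 bases before to 50 after gene starts (GRCh38.p14), which 7 of 10 members had. SLC7A11, FTH1 and HMOX1 had no window and were not searched, so nothing is known here about the core in them. The 1 match of the core among the searched members lay in the AIFM2 window (chr10:70132776-70133075, minus strand), 22 bases before the start, on the strand opposite to the gene. The core is shown in capitals as read along the gene.
AIFM2 promoter: cagcacgagtGCTGAGTCAcgccccgccc
The letters overlap the AP-1 motif TGACTCA on the same strand as the match. The core was present in 4687 of 35116 windows (13.3%). NQO1, another quinone reductase, was at 405 to 415 CPM in L1-FGGY DMSO, 237 to 300.4 in ML355, 1577 to 2014 in NVR and 1279 to 1543 in CTRL DMSO.

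Iron genes showed lower TFRC with higher FTL in ML355 than in L1-FGGY DMSO, and in NVR than in either DMSO group. TFRC (chr3:196012511-196082153, minus strand), the receptor for iron-loaded transferrin, was at 334, 271 and 304 CPM in L1-FGGY DMSO and at 153, 156 and 153 in ML355. It was at 42.0, 54.3 and 42.3 CPM in NVR and at 101, 124 and 136 in CTRL DMSO. No library of any group overlapped with another group. The log2 fold change was -0.98 ± 0.13 with ML355 (adjusted p = 1.13e-05), -1.38 ± 0.13 in NVR against CTRL DMSO (adjusted p = 1.06e-06), -2.71 ± 0.14 in NVR against L1-FGGY DMSO (adjusted p = 3.57e-11) and 1.33 ± 0.13 between the DMSO groups (adjusted p = 1.34e-07). The ML355 comparison and the last 2 share the L1-FGGY DMSO libraries.

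FTL (chr19:48965309-48966879, plus strand), the ferritin light chain, was at 1422, 1478 and 1376 CPM in L1-FGGY DMSO and at 3216, 2572 and 3582 in ML355. It reached 9486, 7265 and 11695 CPM in NVR and lay at 6445, 4994 and 4498 in CTRL DMSO. No groups overlapped. FTL rose by 1.13 ± 0.19 on the log2 scale with ML355 (adjusted p = 8.51e-05) and by 0.84 ± 0.19 in NVR against CTRL DMSO (adjusted p = 0.00191), and was lower by a log2 fold change of -1.90 ± 0.19 in L1-FGGY DMSO than in CTRL DMSO (adjusted p = 1.46e-07). The NVR rise did not pass without CTRL replicate 2 or CTRL replicate 3 (adjusted p = 0.0117 and 0.0132), nor with only the groups compared (0.0187).

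FTH1 (chr11:61959718-61967634, minus strand), the ferroxidase heavy chain, was at 592, 569 and 817 CPM in L1-FGGY DMSO and at 1992, 1168 and 3588 in ML355. It was at 1116, 971 and 1399 CPM in NVR and at 839, 694 and 648 in CTRL DMSO. The ML355 libraries spread widely but all lay above the vehicle libraries, and the log2 fold change was 1.77 ± 0.29 (adjusted p = 8.8e-05). With only the groups compared in the fit, it did not pass (adjusted p = 0.0237). NVR lay above CTRL DMSO in 3 of 3 libraries without passing (0.68 ± 0.29, adjusted p = 0.0661). NVR also lay above L1-FGGY DMSO without overlap and without passing (0.82 ± 0.29, adjusted p = 0.0154). The latter passed with DESeq2 (adjusted p = 0.00263) and, by edgeR, with DESeq2 size factors (0.00839) or the replicate block (0.00563). It passed by edgeR as well with at least 10 counts in every library (0.00984) or only the groups compared (0.00144). Its lowest value in an alternative was 0.023. The ratio of FTL to FTH1, in CPM without regard to length, was 6.95 to 8.50 in the FGGY-low libraries and 0.998 to 2.60 in the FGGY-high ones, where the lowest, ML355 replicate 3, had FTL just below FTH1. Reads of processed ferritin pseudogenes could be split between copies. Counts of 25 FTH1 and 16 FTL pseudogenes made up 1.20% to 6.05% and 0.130% to 0.383% of the joint count, and no ferritin gene crossed the threshold in any of the 5 comparisons with them added.

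The sum of FTH1 and FTL relative to TFRC was 6.04 to 7.54 in L1-FGGY DMSO, 24.0 to 46.9 in ML355, 152 to 310 in NVR and 37.7 to 72.0 in CTRL DMSO. ML355 lay above L1-FGGY DMSO, and NVR above both DMSO groups, without overlap, and ML355 overlapped CTRL DMSO.

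**Figure D2:**
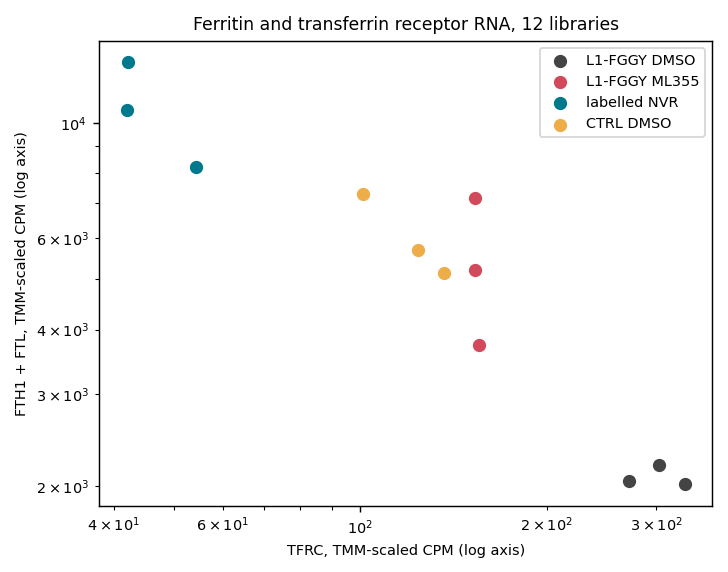
Sum of FTH1 and FTL (y axis, TMM-scaled CPM, log scale) against TFRC (x axis, TMM-scaled CPM, log scale), 1 point per library, coloured by group. The L1-FGGY DMSO libraries sit at the lower right (ratio 6.04 to 7.54) and the libraries labelled NVR at the upper left (152 to 310).

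HMOX1 (chr22:35380361-35394214, plus strand), the inducible haem oxygenase, was at 43.1, 37.3 and 49.3 CPM in L1-FGGY DMSO and at 57.5, 51.1 and 60.9 in ML355. It was at 42.6, 41.7 and 47.2 CPM in NVR and at 66.7, 58.7 and 56.1 in CTRL DMSO. ML355 libraries were all above their vehicle without passing in the main fit (0.39 ± 0.12, adjusted p = 0.0135). The ML355 value did pass with DESeq2 (adjusted p = 0.00455) and, by edgeR, with only the groups compared (0.00899). It also passed by edgeR without L1-FGGY DMSO replicate 3 (0.0076) or ML355 replicate 2 (0.00925). NVR libraries were all below CTRL DMSO (-0.47 ± 0.12, adjusted p = 0.00603). That fall did not pass without NVR replicate 1, NVR replicate 2, CTRL replicate 1 or CTRL replicate 2 (adjusted p from 0.0147 to 0.0293), with only the groups compared (0.0105) or with DESeq2 size factors (0.0102). L1-FGGY DMSO was below CTRL DMSO (-0.49 ± 0.12, adjusted p = 0.00188), which did not pass without L1-FGGY DMSO replicate 2 or CTRL replicate 1 (adjusted p = 0.0163 and 0.0124). With the length trend removed the value was 0.0011, and with length and GC removed it passed in the opposite direction (0.58, adjusted p = 5.7e-05).

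SAT1 (chrX:23783173-23786210, plus strand), spermidine and spermine acetyltransferase, rose with ML355 and was higher in NVR than in either DMSO group. It was at 349, 372 and 322 CPM in L1-FGGY DMSO and at 1362, 1284 and 1312 in ML355. It was at 1220, 1176 and 1238 CPM in NVR and at 719, 662 and 642 in CTRL DMSO, and no groups overlapped. The log2 fold change was 1.93 ± 0.11 with ML355 (adjusted p = 1.51e-09), 0.85 ± 0.11 in NVR against CTRL DMSO (adjusted p = 1.83e-05) and -0.96 ± 0.11 between the DMSO groups (adjusted p = 6.76e-07). Against L1-FGGY DMSO, the vehicle group of its label, NVR was at 1.80 ± 0.11 (adjusted p = 3.2e-10 by edgeR).

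**Figure D3:**
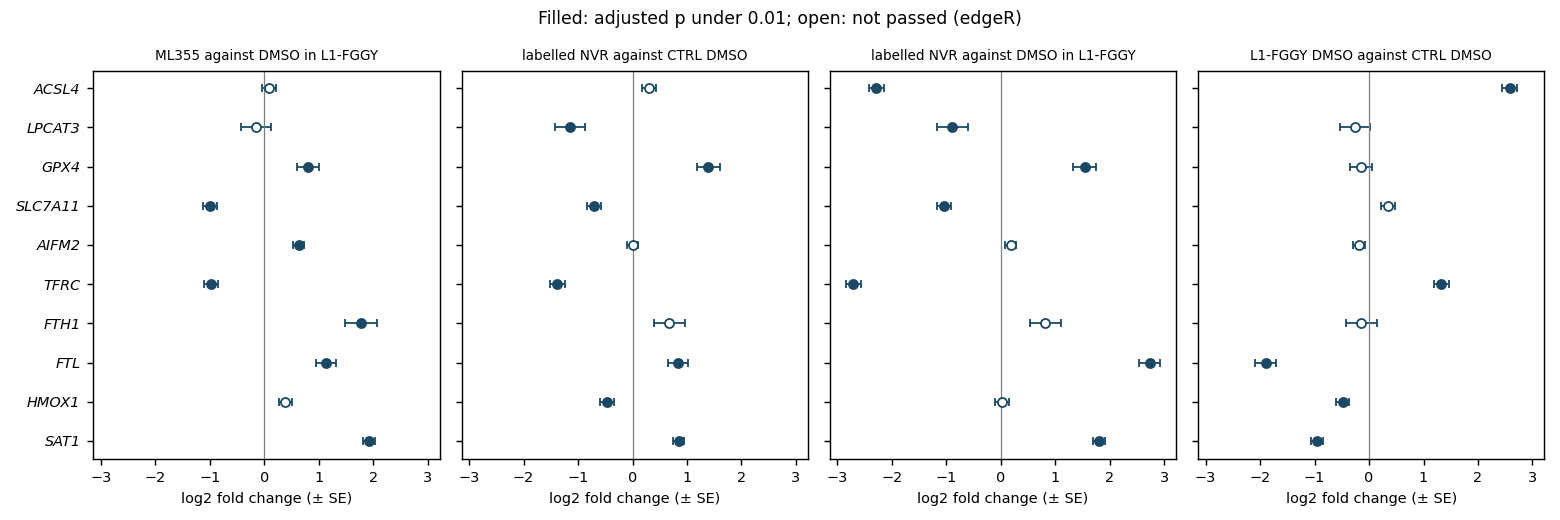
Log2 fold change (x axis, ± SE) of each member (y axis) in 4 comparisons by edgeR, with filled points where the adjusted p was under 0.01. SAT1, FTH1, FTL, GPX4 and AIFM2 are filled to the right and SLC7A11 and TFRC to the left with ML355.

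The fold changes of NVR against CTRL DMSO and of ML355 against L1-FGGY DMSO, which share no library, were compared as the first minus the second. The first crosses the lines as labelled, so inhibitor and line cannot be told apart in this difference. Against L1-FGGY DMSO, NVR was at 0.18 ± 0.11 for AIFM2, 0.02 ± 0.12 for HMOX1 and 1.80 ± 0.11 for SAT1. In the difference, AIFM2 (-0.63 ± 0.15, adjusted p = 0.00246), HMOX1 (-0.85 ± 0.17, adjusted p = 0.000814) and SAT1 (-1.08 ± 0.15, adjusted p = 3.22e-05) were below 0, against 17.3% of all genes below and 16.8% above. By edgeR, 0 members passed above 0, with 0 there at an unadjusted p under 0.05, and DESeq2 and limma's voom each passed 0 above and 3 below. Of all 17849 genes, DESeq2 passed 3498 above and 3387 below, and voom 3074 and 3079. In alternatives some did pass above 0, namely GPX4 with no filter on low counts (0.58, adjusted p = 0.00735) or without NVR replicate 2 (0.81, adjusted p = 0.00967), and ACSL4 (0.40, adjusted p = 0.00513) and SLC7A11 (0.50, adjusted p = 0.00138) with length and GC trends removed. The difference did not pass for FTH1 (-1.09 ± 0.40, adjusted p = 0.0358), LPCAT3 (-0.99 ± 0.39, adjusted p = 0.0486), TFRC (-0.41 ± 0.19, adjusted p = 0.0854), GPX4 (0.59 ± 0.29, adjusted p = 0.111), SLC7A11 (0.29 ± 0.18, adjusted p = 0.2), FTL (-0.30 ± 0.26, adjusted p = 0.376) or ACSL4 (0.21 ± 0.18, adjusted p = 0.38). In alternatives by edgeR, FTH1 passed below 0 without ML355 replicate 2 (-1.41, adjusted p = 0.00212). LPCAT3 passed below 0 with no filter on low counts (-0.99, adjusted p = 0.00391) or without NVR replicate 2 (-1.41, adjusted p = 0.00241). A p that misses the threshold does not show that the effects were alike.

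Transcript length moved with the groups, and the fits were repeated with each library's trend over transcript length, or over length and GC content, removed (an alternative chosen after the data were seen). Over all genes the median log2 fold change of 1883 coding genes of at most 1500 bases was 0.30 with ML355, 0.40 in NVR against CTRL DMSO and 0.97 in NVR against L1-FGGY DMSO. For 3790 genes of at least 5000 bases it was -0.17, -0.22 and -0.61. With length and GC removed, the 7 members that passed with ML355 passed again in the same direction, with FTL at 0.93 and TFRC at -0.77. In NVR against CTRL DMSO the 7 passed again in the same direction, with GPX4 at 0.88 and TFRC at -1.07, and ACSL4 also passed (0.60, adjusted p = 7.23e-06). Across the FGGY split the members depended on this choice. GPX4 in NVR against L1-FGGY DMSO turned from 1.54 to -0.40 (adjusted p = 0.00601) and SLC7A11 from -1.04 to 0.52 (adjusted p = 1.15e-05). TFRC (-1.64), FTL (1.40), SAT1 (1.49) and ACSL4 (-0.96) kept their direction and passed there.

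**Figure D4:**
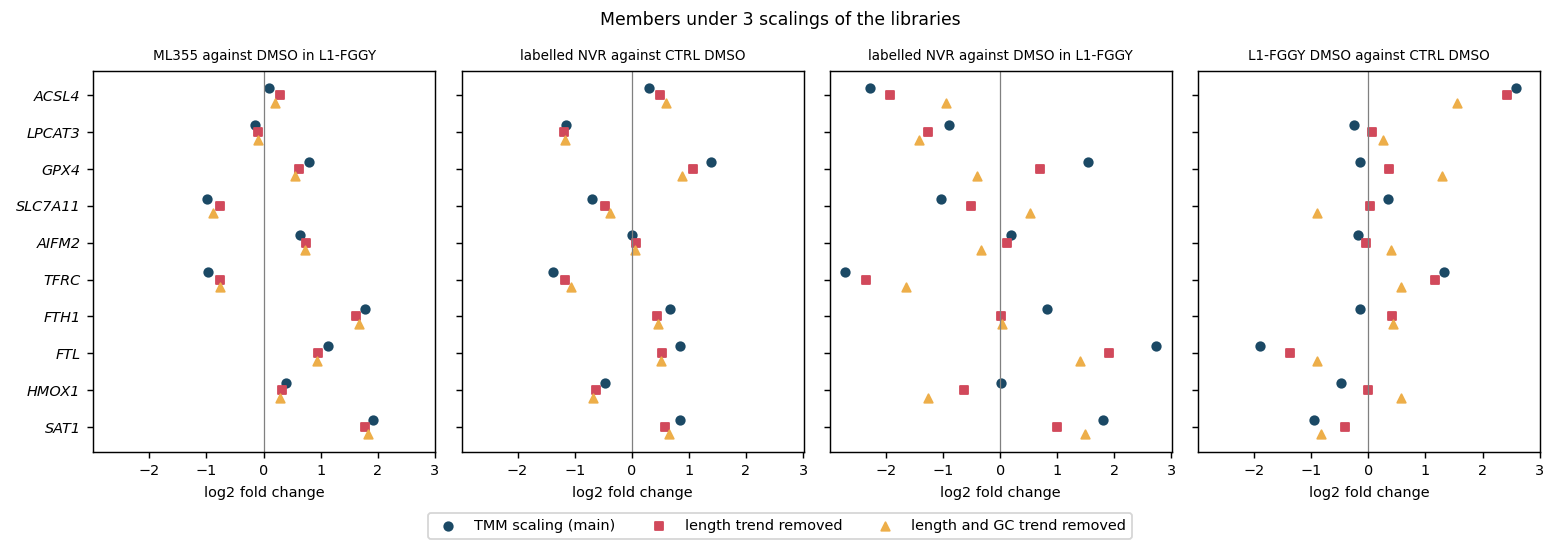
Log2 fold change (x axis) of each member (y axis) in 4 comparisons under TMM scaling (circles), with each library's length trend removed (squares) and with its length and GC trend removed (triangles). The 3 symbols of a member lie close together in the first 2 panels, and those of GPX4 and SLC7A11 cross 0 in the last 2.

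The wider pathways were described by 97 further genes in 9 roles, of which 92 were tested. With ML355, 28 rose (30.4%, beside 21.3% of all genes) and 23 fell (25%, beside 23.5%). In NVR against CTRL DMSO, 19 rose (20.7%, beside 14.5% of all genes) and 15 fell (16.3%, beside 15.3%). The shares that fell were near those of all genes. Peroxide defence is a role label of the gene list that also holds the glutathione-degrading CHAC1. The members with this label, GPX4, which rose with ML355, and SLC7A11, which fell, are not among its 15 further genes. Of these 15, 7 rose with ML355 (21.3% of all genes rose) and 0 fell (23.5% fell) by edgeR. At an unadjusted p under 0.05 there were 10 higher and 1 lower, beside 10942 of all 17849 genes in both directions together. DESeq2 called 8 higher and 0 lower, beside 4253 higher and 4421 lower of all 17849 genes. With voom it was 7 and 0, beside 3746 and 4252 of all genes. The genes that rose included SLC3A2, SEPSECS of selenocysteine synthesis (1.60 ± 0.14, adjusted p = 1.15e-07) and, chosen after its values were seen, the glutathione-degrading enzyme CHAC1 (2.69 ± 0.25). With NVR against CTRL DMSO 3 of these 15 rose (20%, beside 14.5% of all genes) and 2 fell (13.3%, beside 15.3%). These shares were near those of all genes. The genes that rose were led by CTH of cysteine synthesis (1.06 ± 0.15, adjusted p = 5.49e-05) and PRDX6 (0.68 ± 0.14, adjusted p = 0.000831). PRDX6 did not pass with only the groups compared (adjusted p = 0.0110).

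Iron uptake is a role label of the gene list, HFE included, and the part of each gene in uptake was not tested. Of 6 tested genes with this label beside TFRC, 3 fell with ML355 (23.5% of all genes fell) and 0 rose by edgeR, DESeq2 and voom alike, with 1 higher at an unadjusted p under 0.05. These were the ferrireductase STEAP3 (from 48.9 to 55.6 CPM down to 18.3 to 24.6; -1.32 ± 0.12, adjusted p = 1.59e-07), HFE (-1.02 ± 0.12, adjusted p = 2.65e-06) and the metal importer SLC39A8, named to complete the 3 (-0.66 ± 0.13, adjusted p = 0.000407). In NVR against CTRL DMSO TFR2 (-1.58 ± 0.26, adjusted p = 0.000195) and HFE (-0.49 ± 0.12, adjusted p = 0.00343) fell, and HFE did not pass with the length trend (adjusted p = 0.0478) or length and GC trends removed (-0.20, 0.145), with only the groups compared (0.0136), or without NVR replicate 3, CTRL replicate 2 or CTRL replicate 3 (0.0228, 0.0235 and 0.0104). Against L1-FGGY DMSO all 6 were lower in NVR (35.4% of all genes), led by SLC39A8 (-2.56 ± 0.14) and SLC39A14 (-2.00 ± 0.14, adjusted p = 1.72e-09), and 4 of 6 were higher in L1-FGGY DMSO than in CTRL DMSO (32.5% of all genes).

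Iron sensing and storage genes changed in both directions. IREB2, an iron regulatory protein, fell with ML355 (-1.03 ± 0.16, adjusted p = 4.13e-05) and FBXL5, the ubiquitin ligase subunit that removes it, rose (0.67 ± 0.11, adjusted p = 7.41e-05). NCOA4, the receptor for ferritin breakdown, separated by line at 388 to 445 CPM in L1-FGGY DMSO and 63.0 to 79.6 in CTRL DMSO (2.52 ± 0.13, adjusted p = 5.68e-11). The iron exporter SLC40A1, whose 5′ UTR also held the element core, had 1 count in the 3 L1-FGGY DMSO libraries together and 0 in the ML355 libraries, against 741 in NVR and 361 in CTRL DMSO. The ratio of NVR to L1-FGGY DMSO was 639.5 (exact 95% counting interval 114 to 25293, counting error only). It was 1.22 ± 0.22 higher on the log2 scale in NVR than in CTRL DMSO (adjusted p = 0.000623).

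Haem, iron-sulfur and polyamine genes gave these leading changes. UROS (-1.63 ± 0.15) and FECH (-0.98 ± 0.14) of haem synthesis fell with ML355, and the biliverdin reductase BLVRB rose in NVR against CTRL DMSO (1.20 ± 0.18, adjusted p = 7.89e-05) while the haem exporter FLVCR1 fell (-0.83 ± 0.14). ISCU, the scaffold of iron-sulfur cluster assembly, rose with ML355 (1.36 ± 0.10, adjusted p = 2.76e-08) and in NVR against CTRL DMSO (0.65 ± 0.10, adjusted p = 0.000119). SAT2, a paralogue of SAT1, rose in the same comparisons (1.86 ± 0.18 and 1.10 ± 0.17), and AMD1 of polyamine synthesis fell (-1.13 ± 0.14 and -0.84 ± 0.14). PDSS1, which makes the coenzyme Q tail, fell as well (-1.48 ± 0.16 and -1.79 ± 0.16). ALOX12, the target of ML355, was singled out after its values were seen: it was at 0.578 to 0.974 CPM in L1-FGGY DMSO (11 to 17 counts per library), 2.57 to 3.59 in ML355, 4.44 to 6.44 in NVR and 5.84 to 6.45 in CTRL DMSO. It rose with ML355 (1.96 ± 0.28, adjusted p = 1.77e-05) and was lower in L1-FGGY DMSO than in CTRL DMSO (-3.01 ± 0.26, adjusted p = 2.67e-08).

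**Figure D5:**
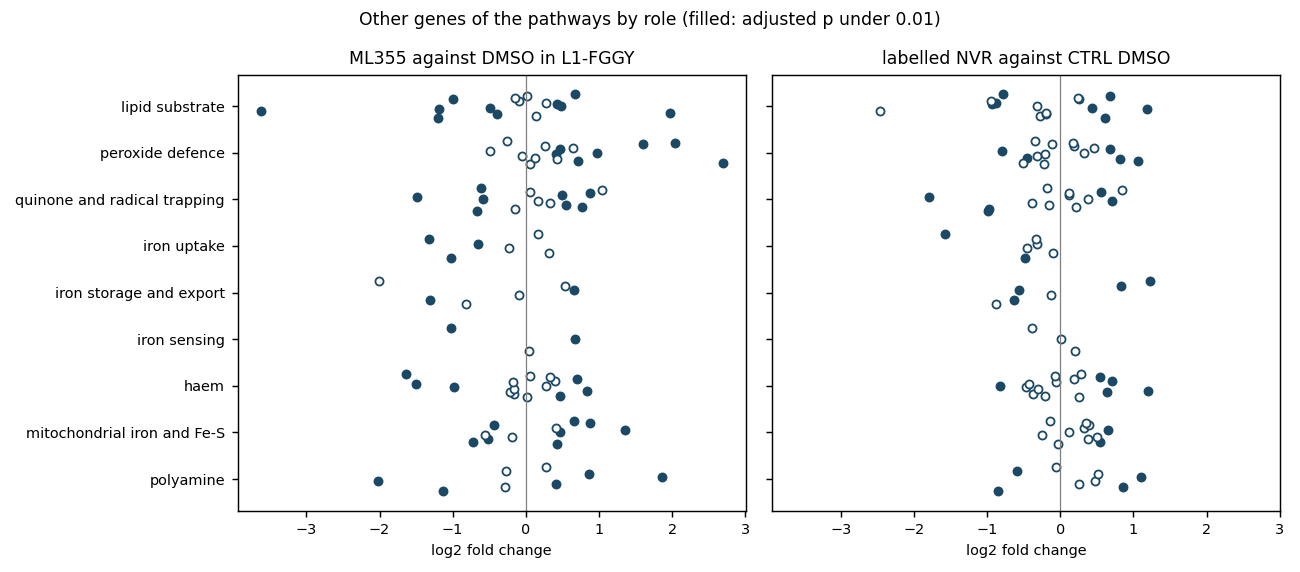
Log2 fold change (x axis) of the 92 further pathway genes tested, by role (y axis), with ML355 in L1-FGGY (left) and in the libraries labelled NVR against CTRL DMSO (right). Filled points passed at adjusted p under 0.01 by edgeR. Among genes labelled iron uptake every filled point lies left of 0 in both panels.

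Across the FGGY split, the leading changes ran from large to small. In L1-FGGY DMSO against CTRL DMSO CTH was higher by 4.69 ± 0.15, and SMOX, which oxidises spermine (-4.31 ± 0.19), and FADS2, a fatty acid desaturase (-3.05 ± 0.12), were lower. The iron sensing genes ACO1 (0.53 ± 0.11) and IREB2 (0.67 ± 0.16) were higher, and both turned sign with length and GC trends removed (-0.076 and -0.34). There IREB2 passed in the opposite direction by edgeR (adjusted p = 0.00145). In NVR against L1-FGGY DMSO CTH, SMOX and FADS2 were at -3.63 ± 0.14, 4.82 ± 0.20 and 2.18 ± 0.12. FADS2 also fell in NVR against CTRL DMSO, from 454 to 512 CPM to 255 to 273 (-0.87 ± 0.11, adjusted p = 1.72e-05), as did FADS1 (-0.93 ± 0.11, adjusted p = 7.84e-06).

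Per kilobase of canonical transcript, FTL was the most abundant member in every group, at 1636, 3586, 10886 and 6099 CPM per kb on average in L1-FGGY DMSO, ML355, NVR and CTRL DMSO, and LPCAT3 was the least (3.85, 3.45, 2.04 and 4.60). Libraries of FTL and FTH1 overlapped on this scale in ML355, and FTL lay apart from the next member in the other 3 groups. In NVR, SAT1, FTH1 and GPX4 followed FTL, and neighbours in that order overlapped. TFRC was at rank 5 in L1-FGGY DMSO (60.4 CPM per kb), overlapping ACSL4, and at rank 8 in NVR (9.22 CPM per kb), overlapping SLC7A11. Among all tested genes the nearest pattern to TFRC over the 12 libraries was that of NCAPD3 (root mean square difference of centred log2 CPM 0.112), to FTL that of TAF10 (0.112) and to ACSL4 that of SEC22B (0.120).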

How the data were processed

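RNA of 12 libraries described as H520 was analysed as the labels group it. The submitters' processing notes name STAR 2.5.3a, HTSeq 0.11.2 and hg38. The authors deposited raw read counts per gene, not normalized; annotation release, strand setting and treatment of multiply aligned reads are not given in the sources used here, so reads of overlapping or antisense genes cannot be told apart. The labels name a TruSeq kit and the methods NEB. Symbols and positions came from GENCODE 44, which matched 57532 of 58302 identifiers, and no column of per-sample values was left unused (0).

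Counts were tested in R 4.3.3 with edgeR 4.0.16 (TMM, filterByExpr, robust quasi-likelihood fit of 4 group means in 1 fit, adjusted p under 0.01 by Benjamini-Hochberg over 17849 genes). The biological coefficient of variation was 0.143, and total counts of 16242082 to 27004768 put a floor of 3 counts at 0.185 to 0.111 CPM. Scripts were tested on simulated data. Library pairs of a group differed by more than counting noise (chi-square per degree of freedom 6.60 to 83.6). The members and gene lists were chosen with earlier results of these data known. Pathway genes were named from those that passed, up to 2 per role and comparison by smallest adjusted p, where libraries of the groups stood apart and the mean CPM over all libraries was 1 or more; the nearest pattern is given for the 3 members with the widest range of group means. Marker lists: squamous, neuroendocrine, fibroblast, leukocyte, endothelial and erythroid. Neuroendocrine markers summed to 0.492 to 0.946 CPM in the FGGY-high libraries and 5.20 to 23.8 in the others. The fits were repeated with other scalings, filters and thresholds, a fit of only the groups compared, a replicate block, each library left out, pseudogene counts added, and length and GC trends removed, and with the tools DESeq2 (1.42.0) and limma (3.58.1, voom). Motif and level analyses used Python 3.11.15.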

Additional observations from a re-analysis of the deposited data

Results flagged for a closer look

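For 3 members the fold change of NVR against CTRL DMSO differed from that of ML355 against L1-FGGY DMSO by edgeR's test (the first minus the second). SAT1 rose in both, by 1.93 on the log2 scale with ML355 and 0.85 in NVR, and the difference was -1.08 (adjusted p = 3.22e-05). AIFM2 rose by 0.63 with ML355 and was at 0.00 in NVR, a difference of -0.63 (adjusted p = 0.00246). HMOX1 was at 0.39 with ML355, which did not pass in the main fit but did in some alternatives, and at -0.47 in NVR, a difference of -0.85 (adjusted p = 0.000814). Against L1-FGGY DMSO, the vehicle group of its label, NVR was at 1.80 for SAT1, 0.18 for AIFM2 and 0.02 for HMOX1. The differences thus depend on which DMSO group NVR is set against. Inhibitor, line and the labelling of the NVR libraries cannot be told apart in these differences. With length and GC trends removed the differences were -1.17, -0.67 and -0.97. Groups of 3 libraries were not examined for single outlying samples.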

How the results depend on the processing

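Counts of members and pathway genes were within 1.5 times of the reported ones except as follows. A fold change of at least 2 (absolute log2 of 1) left 3 members and 18 pathway genes with ML355, 3 and 7 in NVR against CTRL DMSO, 3 members between the DMSO groups, and 1 and 17 for the difference of effects. The share of all genes is not given for that threshold, so these counts are not read further. With only the groups compared, 4 members and 22 pathway genes passed in NVR against CTRL DMSO. Of all 16536 genes tested there, 2071 passed higher and 2102 lower. Leaving out 1 library gave 4 to 7 members (4 without CTRL replicate 2) and 22 to 48 pathway genes (22 without CTRL replicate 3) in that comparison, and 3 to 5 members for the difference of effects (5 without NVR replicate 2). Of all genes, 1602 of 18489 passed higher and 1904 lower without CTRL replicate 2. Without CTRL replicate 3, 1622 of 18486 passed higher and 1928 lower. For the difference without NVR replicate 2, 3154 of 18526 passed above 0 and 3278 below. For that difference 5 members passed without a filter on low counts, beside 3292 of 36072 genes above 0 and 3378 below. At an adjusted p under 0.05, 5 passed, and the share of all genes is not given there. With length and GC trends removed 5 passed, beside 3384 of 17849 genes above 0 and 3883 below. Between the DMSO groups 8 passed with these removed, beside 6146 of 17849 genes higher and 5862 lower.

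These values turned sign. With library size alone ACSL4 with ML355 became -0.038, AIFM2 in NVR -0.16 against CTRL DMSO and -0.067 against L1-FGGY DMSO, and HMOX1 -0.23 against L1-FGGY DMSO. AIFM2 in NVR against CTRL DMSO was 0.00 with voom and with only the groups compared (-0.0012 and -0.0018), -0.024 without a filter, and from -0.064 (without NVR replicate 3) to 0.070 (without NVR replicate 2). HMOX1 in NVR against L1-FGGY DMSO ran from -0.080 to 0.12 and GPX4 between the DMSO groups from -0.29 to 0.043 without 1 library. With the length trend removed HMOX1 became -0.63 in NVR against L1-FGGY DMSO, and between the DMSO groups LPCAT3 0.072, GPX4 0.37, FTH1 0.41 and HMOX1 0.0011. With length and GC removed, NVR against L1-FGGY DMSO gave GPX4 -0.40, SLC7A11 0.52, AIFM2 -0.33, HMOX1 -1.26 and IREB2 0.30, and the DMSO groups LPCAT3 0.26, GPX4 1.28, SLC7A11 -0.90, AIFM2 0.39, FTH1 0.43, HMOX1 0.58, ACO1 -0.076 and IREB2 -0.34, of which GPX4, SLC7A11, AIFM2, HMOX1 and IREB2 passed in both comparisons (adjusted p up to 0.00601). The causes were not tested.

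Replicate numbers did not pair the samples: same-numbered samples' deviations correlated between -0.354 and 0.170. With the replicate block 7, 7, 7, 5 and 3 members passed in the 5 comparisons, as without it, and 50, 31, 72, 63 and 31 pathway genes. Of all 17849 genes, 3596, 2274, 6647, 5680 and 2779 then passed higher and 3987, 2480, 6227, 6299 and 2870 lower. With the block, AIFM2 in NVR against CTRL DMSO was at -0.00086. LPCAT3 in NVR against L1-FGGY DMSO was at -0.93 (adjusted p = 0.0118 by edgeR) and FTH1 there at 0.82 (adjusted p = 0.00563). Library size alone moved the share of higher among genes that passed in NVR against CTRL DMSO from 48.8% to 36.3%, and the median of all genes by -0.15 there, by -0.13 with ML355 and to -0.16 in NVR against L1-FGGY DMSO. The lowest member count was 37 (LPCAT3 in NVR replicate 3).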
